A study of Astatotilapia calliptera and Pundamilia nyererei and Oreochromis niloticus with 31 samples.

Results

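Helitron-1 is the only rolling-circle family in the curated transposable element (TE) annotation of the Lake Malawi cichlids, 1 of 557 families in that table, and it was taken by its name. The measurements are small RNA (sRNA) libraries whose reads of 24 to 35 nucleotides, the size range of piRNAs, were counted over TE families. The curated table holds 14 of the 31 libraries of the series: ovaries (n = 3), testes (n = 4) and dorsal muscle (n = 1) of Astatotilapia calliptera (AC), testes of Maylandia zebra (MZ, n = 2) and testes of Tropheops sp. 'mauve' (TM, n = 4). All are labelled wild-type and the labels give no age. AC and TM were raised in aquaria with fish of their own species, and the MZ testes came from captive-bred dominant adult males from a commercial supplier. The table holds TE families only, so tissues could not be checked against marker genes. Reads of all 3 species were mapped to the AC genome, so a lower level in MZ or TM cannot be told apart from poorer mapping of their reads. The other 4 tables of the series carry numbered family models in place of names, with 0 entries called Helitron or rolling-circle, and were not used here.

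Helitrons are DNA transposons that move by rolling-circle replication, with a transposase that joins a replication initiator domain to a helicase, and so differ from the cut-and-paste elements that make up most of the DNA class. They can carry fragments of host genes. piRNAs are germline sRNAs bound by Piwi proteins, and those that match a TE guide its silencing in ovaries and testes. The levels below are those of sRNAs of piRNA size that match a family, not of its transcripts, and were not selected by Piwi binding. Each family has a single value per library, with sense and antisense matches not separated.

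sRNAs matching Helitron-1 were among the most abundant of any TE family in every testis library, and their level was higher in AC testes than in AC ovaries. The deposited values are regularised log (rlog) values, which are normalised read counts on the log2 scale, with differences shrunk where reads are few. In AC ovaries the Helitron-1 rlog value was 13.78, 13.92 and 14.03 in replicates 1 to 3. In AC testes it was 14.38, 14.32, 14.40 and 14.17 in replicates 1 to 4, so that every testis library lay above every ovary library. MZ testes had 14.01 and 14.14. TM testes had 14.43, 14.25, 14.39 and 14.24, a range that overlapped with that of AC testes and lay above both MZ libraries. The AC muscle library had 14.46, the highest single value, and has no replicate. In muscle, its somatic control, the paper found no marked group of piRNA-sized sRNAs carrying the sequence signatures of piRNAs. The muscle values are therefore not taken as piRNA levels. By group mean the gonads ran from AC ovaries (13.91 ± 0.13, SD, n = 3) through MZ testes (14.08 ± 0.091, n = 2) and AC testes (14.32 ± 0.10, n = 4) to TM testes (14.33 ± 0.097, n = 4). The neighbours in this order overlapped for AC ovaries and MZ testes and for AC testes and TM testes, and did not overlap for MZ testes and AC testes.

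**Figure D1:**
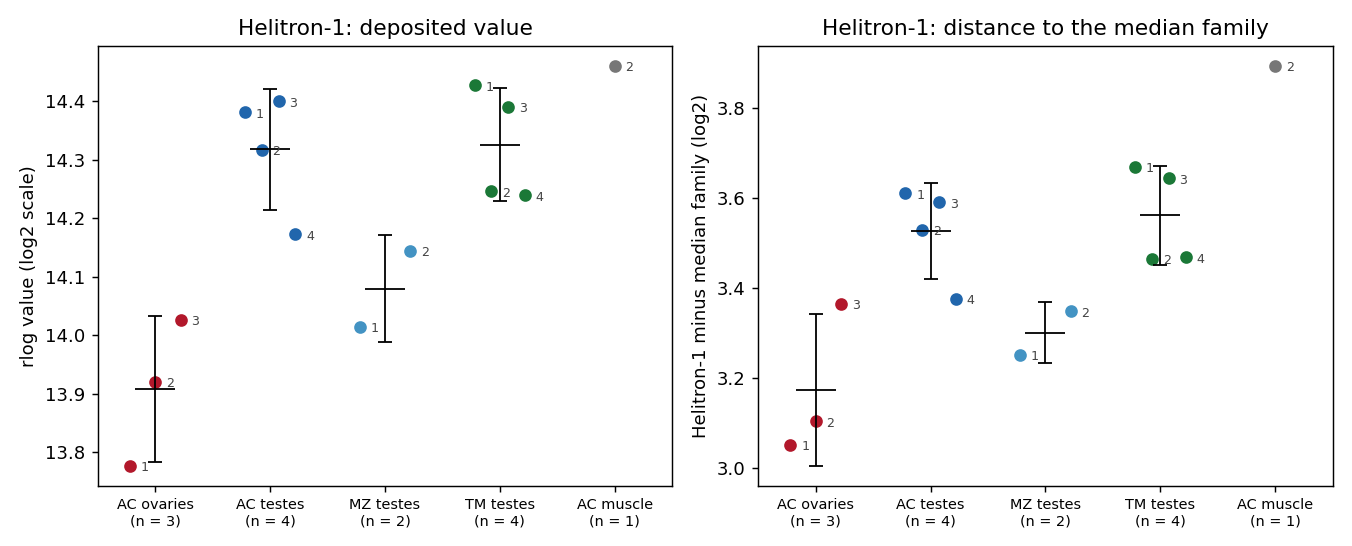
Helitron-1 in each sRNA library, as the deposited rlog value (left) and as its distance to the median of the 557 TE families of the same library (right), both on the log2 scale. Points are libraries with their replicate number, horizontal lines are means and bars are ± 1 SD; the 4 AC testis libraries lie above the 3 AC ovary libraries in both panels, and neither axis starts at 0.

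Helitron-1 was at or near the top of the families in testes and lower in the order in ovaries and muscle. It was the highest of the 557 families in AC testes replicates 1 and 3 and the second highest in replicates 2 and 4. In TM testes it ranked 2 in each of the 4 libraries, and in MZ testes it ranked 3 and 2. In AC ovaries it ranked 7, 6 and 7, and in AC muscle 9. Adding the internal and terminal repeat entries of the LTR families together before ranking left all 14 ranks as they were. Ranks compare families without correction for their length or copy number, so they order the total of counted sRNAs and not sRNAs per element. Reads with more genome positions than the mapping limit are not in that total.

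The families around Helitron-1 differed between the organs. In 12 of the 14 libraries the highest family was NA-DNA-22, placed in the DNA class by its name. In the other 2, AC testes replicates 1 and 3, Helitron-1 exceeded it by 0.18 and 0.11 on the log2 scale. In AC testes replicate 2 Helitron-1 was only 0.023 below NA-DNA-22, and in replicate 4 it was 0.36 below. In TM testes the distance below NA-DNA-22 was 0.40, 1.10, 0.81 and 1.69. With NA-DNA-22 set aside, Helitron-1 was the highest family in all 4 AC testis libraries, all 4 TM testis libraries and MZ testes replicate 2, and ranked 2 in MZ testes replicate 1, 6, 5 and 6 in AC ovaries and 8 in muscle. The next family below it in TM testes was L2-8, a LINE retrotransposon, by 0.18 to 0.33. In MZ testes replicate 1 the gaps were small, with L2-6 (also a LINE) 0.022 above it and L2-8 0.0040 below it. In AC ovaries the families above Helitron-1 in all 3 libraries were NA-DNA-22, Maverick-1, L1-3, L2-6 and L2-8. Mavericks are large DNA transposons that encode their own DNA polymerase and, like Helitrons, do not move by simple cut and paste.

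**Figure D2:**
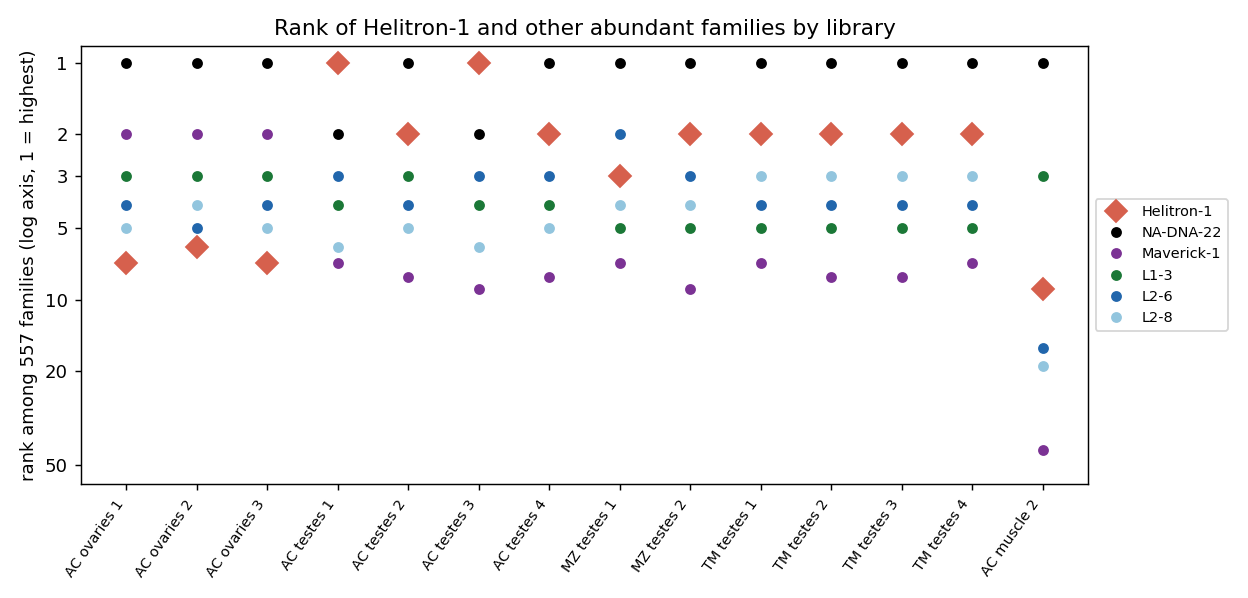
Rank of Helitron-1 (diamonds) and of 5 other abundant families among the 557 TE families in each of the 14 libraries, on a log axis with rank 1 at the top. Helitron-1 sits at rank 1 to 3 in all 10 testis libraries, at 6 or 7 in the 3 ovary libraries and at 9 in muscle.

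As a share of all sRNAs matching TE families, computed by summing 2 to the power of the rlog value over the 557 families of a library, Helitron-1 made up 0.786%, 0.901% and 1.08% in AC ovaries and 1.64%, 1.58%, 1.66% and 1.44% in AC testes. MZ testes had 1.19% and 1.38%, and TM testes had 1.67%, 1.48%, 1.62% and 1.45%. The share in muscle was 0.840%, inside the range of the ovaries, although the muscle rlog value was the highest of all. These shares rest on rlog values of the counted reads and are approximate. The mean share was 1.58% ± 0.099 (SD, n = 4) in AC testes and 0.921% ± 0.15 (n = 3) in AC ovaries, a difference of 0.66 percentage points, with no overlap between the libraries. The exact two-sided permutation test gave p = 0.0571, the smallest that 4 against 3 libraries allow, and 0.178 after Benjamini-Hochberg adjustment over the 4 share comparisons.

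The sum behind these shares holds NA-DNA-22, whose own share differed widely between libraries. NA-DNA-22 took 24.4%, 20.9% and 9.89% of the summed values in AC ovaries, 37.6% in muscle, 1.45% to 1.85% in AC testes, 8.93% and 2.37% in MZ testes and 2.21% to 4.70% in TM testes. Without NA-DNA-22 in the sum, the share of Helitron-1 was 1.04%, 1.14% and 1.20% in AC ovaries, 1.47% to 1.69% in AC testes, 1.31% and 1.41% in MZ testes, 1.52% to 1.71% in TM testes and 1.35% in muscle. The mean difference between AC testes and AC ovaries was then 0.48 percentage points and the libraries still did not overlap (exact permutation p = 0.0571, the smallest possible). Of the DNA and rolling-circle families together, NA-DNA-22 again left out, Helitron-1 made up 3.94% to 4.87% in AC ovaries, 5.05% to 5.74% in AC testes, 4.90% and 5.18% in MZ testes, 5.52% to 5.98% in TM testes and 4.23% in muscle.

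**Figure D3:**
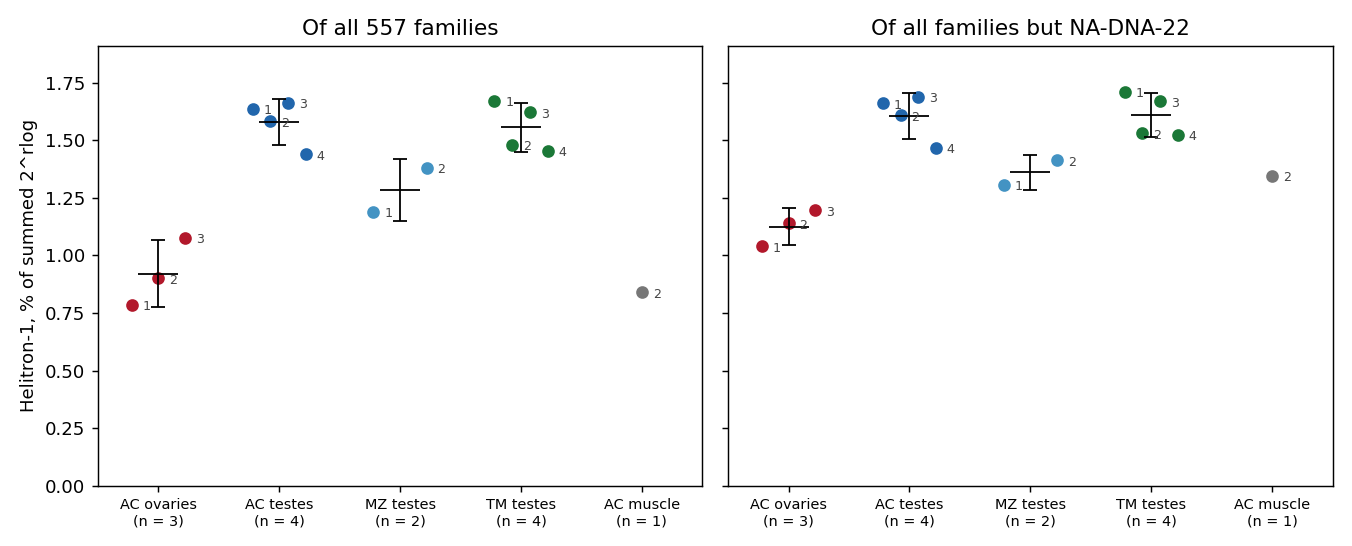
Share of Helitron-1 in the summed linear values (2 to the power of rlog) of each library, in percent, over all 557 families (left) and over all families but NA-DNA-22 (right). Points are libraries with their replicate number, lines are means and bars ± 1 SD; the axes start at 0, and the AC ovary libraries move from 0.786% to 1.08% on the left to 1.04% to 1.20% on the right, still below all AC testis libraries.

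The comparison of AC testes with AC ovaries asks whether the sRNAs matching a family differ between the male and the female gonad of the same species. Helitron-1 was higher in testes by 0.41 on the log2 scale (standard error 0.095, 95% confidence interval 0.20 to 0.62), a 1.33-fold difference. The adjusted p was 0.00719 in limma, which fits a linear model to each family and shares information on the spread across 554 families. These are the families whose mean rlog value was at least 3.32, which is 10 on the linear scale. Calls at an adjusted p under 0.05 were frequent in this comparison: 20.8% of the families tested were higher in testes and 21.3% were lower, and Helitron-1 had the 91st largest difference of the 554 in the direction of testes. On the scale of the deposited values, the other families among the highest were lower in testes or did not pass the threshold. NA-DNA-22 fell by 3.79 on the log2 scale in testes (adjusted p = 7.79e-05), Maverick-1 fell by 1.48 (adjusted p = 0.000156), L1-3 fell by 0.40 (adjusted p = 0.00301) and L2-8 fell by 0.30 (adjusted p = 0.0389). L2-6 did not pass the threshold, with a difference of -0.15 (adjusted p = 0.295). As a share of the summed values, NA-DNA-22 and Maverick-1 were also lower in every testis library than in every ovary library. By share, with NA-DNA-22 kept in the sum, L1-3 and L2-8 overlapped between the organs. NA-DNA-22 took 9.89% to 24.4% of that sum in AC ovaries and 1.45% to 1.85% in AC testes. This lowers the shares of all other families more in ovaries, so overlaps by share may not hold without it, which was not tested. L1-3 took 1.19% to 1.52% in AC ovaries and 1.24% to 1.31% in AC testes, and L2-8 took 0.943% to 1.43% and 1.16% to 1.27%. With the deposited values, Maverick-2 and Maverick-3 were also lower in testes by limma, with differences of -0.25 and -0.46, although the Maverick-3 libraries of both organs overlapped. By share, again with NA-DNA-22 in the sum, the organs overlapped for both families. Maverick-2 took 0.308% to 0.345% in AC ovaries and 0.332% to 0.374% in AC testes, and Maverick-3 took 0.464% to 0.791% and 0.528% to 0.622%. Whole organs were measured, so a different mix of cells, germline or somatic, and more matching sRNAs per cell cannot be told apart. The paper also reports that some ovary sRNA samples failed quality control and were left out. It names the yolk, which may disturb RNA purification, as the most likely reason. Any effect of RNA quality in the ovary libraries used here was not tested.

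By TE class, read from the family names, the DNA class leaned the same way as Helitron-1 with the deposited values. Of its 132 families tested, 65 were higher in AC testes, 14 were lower and 53 did not pass, with a median difference of 0.28, against -0.0079 over all 554 families. Helitron-1 lay above that class median, and 45 DNA families had a larger difference. Of the 70 LINE families, 13 were higher and 11 lower, with a median of 0.0014. Of the 348 LTR families, 36 were higher and 90 lower, with a median of -0.14. All 3 SINE families were lower, with a median of -0.97. Over all 554 families, 20.8% were higher and 21.3% lower. These class counts belong to the scale of the deposited values. With equal TE totals only 28 families of any class were lower, and with all 24 to 35 nucleotide reads only 1.

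**Figure D4:**
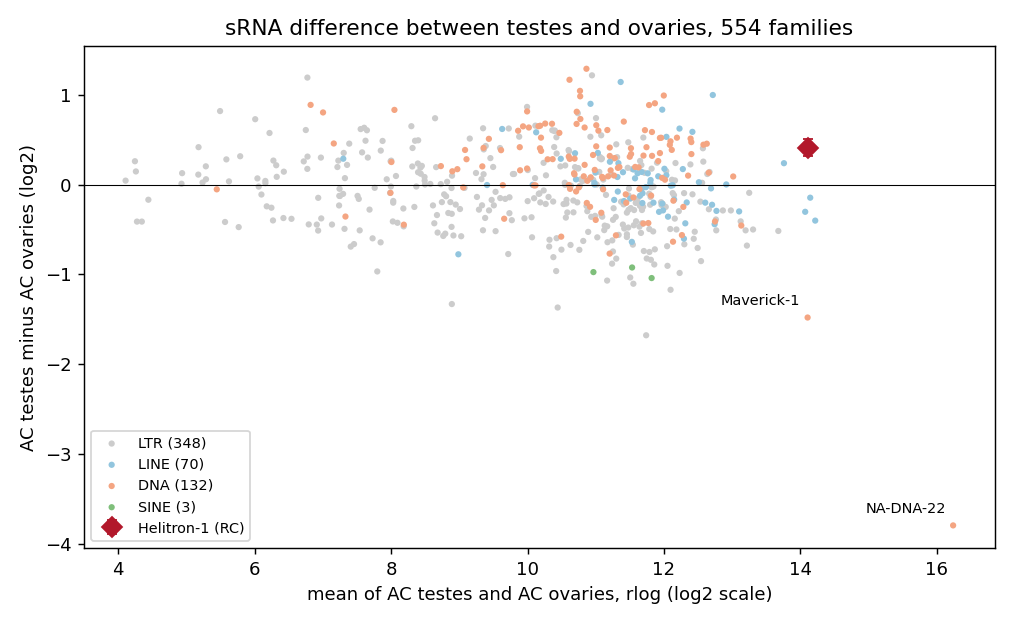
Difference between AC testes (n = 4) and AC ovaries (n = 3) against the mean level of both organs for the 554 TE families tested, coloured by class, both axes on the log2 (rlog) scale. The diamond is Helitron-1 at a difference of 0.41 with a bar of ± 1 standard error; it is among the families with the highest mean level, where NA-DNA-22 and Maverick-1 lie far below 0.

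How large the difference between the organs is depended on what the libraries were scaled to, while its direction did not. With each library centred on its median family the difference was 0.35 (limma adjusted p = 0.0316), with equal totals over the TE families it was 0.79 (adjusted p = 0.000652), and with equal totals without NA-DNA-22 it was 0.51 (adjusted p = 0.00139). Scaled to all 24 to 35 nucleotide reads of the library, whether or not they match a TE, it was 1.77 (95% confidence interval 0.68 to 2.86, adjusted p = 0.0117). The median difference over all families moved with the scaling, from -0.0079 with the deposited values to 0.37 with equal TE totals and 1.35 with all reads, and with it the split of calls, from 115 higher and 118 lower to 267 and 28, and to 304 and 1. The split was 93 higher and 144 lower with libraries centred on the median family, and 153 and 87 with equal totals without NA-DNA-22. Scaling shifts all families of a library alike, so the excess of the Helitron-1 difference over the median family difference, 0.42, is the same under every scaling by construction. Its distance to the median family of its own library, which does not depend on scaling, was 3.05, 3.10 and 3.37 in AC ovaries and 3.61, 3.53, 3.59 and 3.38 in AC testes, so that the lowest testis library and the highest ovary library all but met (mean difference 0.35, exact permutation p = 0.0571, the smallest possible). Set against the median DNA family instead, the distance was 2.95, 3.04 and 3.23 in AC ovaries and 3.22, 3.23, 3.23 and 3.07 in AC testes. The organs then overlapped, and the mean difference was 0.12 (exact permutation p = 0.229), so most of the excess over the median family was not seen over the DNA class. Against the median of all families, MZ testes had 3.25 and 3.35, TM testes 3.67, 3.47, 3.64 and 3.47, and muscle 3.89.

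**Figure D5:**
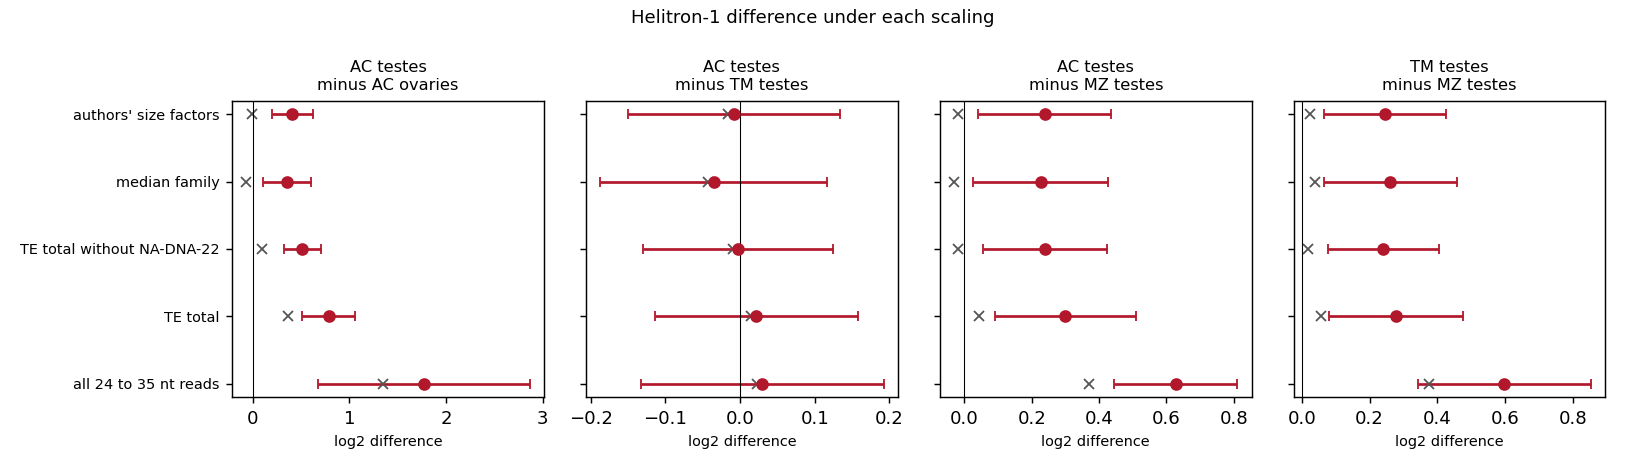
Difference of Helitron-1 on the log2 scale in the 4 comparisons (panels) under 5 scalings of the libraries (rows of points), with 95% confidence intervals from limma. Crosses mark the median difference over the 554 families under the same scaling; in AC testes against AC ovaries the Helitron-1 difference runs from 0.35 to 1.77 and all 5 intervals lie above 0, while those of AC against TM testes all contain 0. Panels have their own horizontal axes.

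The testes of the 3 species were compared to ask whether the sRNAs matching a family differ among closely related cichlids of one lake. These comparisons share libraries: each species enters 2 of the 3, so the differences of AC and of TM from MZ rest on the same 2 MZ libraries. Between AC and TM testes, Helitron-1 differed by -0.0081 on the log2 scale (95% confidence interval -0.15 to 0.13, limma adjusted p = 0.931), where 20.9% of the 554 families were higher in AC and 21.5% were lower. The sign of so small a difference turned with the scaling and with the libraries used. NA-DNA-22 was lower in AC than in TM testes by 0.99 (log2 difference -0.99, adjusted p = 0.00399) and L2-8 differed by -0.15 (adjusted p = 0.0118), while Maverick-3 was higher in AC by 0.79 (adjusted p = 3.75e-05). The mean share of Helitron-1 was 1.58% in AC and 1.56% in TM testes (exact permutation p = 0.857).

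Helitron-1 was lower in both MZ testis libraries than in every AC and TM testis library, without passing the threshold of the test across families. The difference between AC and MZ testes was 0.24 (standard error 0.086, 95% confidence interval 0.041 to 0.44, adjusted p = 0.0869), where 7.22% of the families were called higher in AC and 9.03% lower. That between TM and MZ testes was 0.25 (standard error 0.077, 95% confidence interval 0.067 to 0.43, adjusted p = 0.0535), where 10.5% were called higher in TM and 12.8% lower. With equal TE totals the latter was 0.28 (adjusted p = 0.0497), and without NA-DNA-22 in the totals it was 0.24 (adjusted p = 0.0446), just past the threshold. Equal TE totals also moved the calls over all families, from 40 higher in AC and 50 lower to 67 and 34 against MZ, and from 58 higher in TM and 71 lower to 76 and 57. Scaled to all 24 to 35 nucleotide reads, both differences passed, at 0.63 (adjusted p = 0.000749) and 0.60 (adjusted p = 0.00161), and so did most families, with 314 higher in AC against 9 lower and 377 higher in TM against 14 lower. By share, the differences were 0.29 percentage points for AC and 0.27 for TM against MZ, with an exact permutation p of 0.133 in each case, the smallest that 4 against 2 libraries allow, and 0.178 after adjustment. The DNA class had a median difference from MZ of 0.16 for AC and 0.065 for TM. Set against the median DNA family, the distance of Helitron-1 was 3.07 and 3.22 in MZ testes. It was 3.22, 3.23, 3.23 and 3.07 in AC testes, which overlapped with MZ. In TM testes it was 3.38, 3.25, 3.34 and 3.25, above both MZ libraries. These distances were not tested. The MZ libraries stood apart from each other in NA-DNA-22, with rlog values of 16.92 and 14.92, and Helitron-1 was 0.13 lower in the one with more NA-DNA-22. Its part in the difference was not tested. With either MZ library left out the MZ group is a single library, the spread in the fit comes from the AC or TM libraries alone, and the lone library is assumed to vary as they do. Without MZ testes replicate 1 the differences were 0.17 for AC (adjusted p = 0.302) and 0.18 for TM (adjusted p = 0.162). Without MZ testes replicate 2 they were 0.30 for AC (adjusted p = 0.126) and 0.31 for TM (adjusted p = 0.0492).

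The families whose level ran most like that of Helitron-1 over the 13 gonad libraries were L2-12 (Pearson r = 0.92), hAT-Charlie-7 (0.92), hAT-Tip100-2 (0.91), CMC-EnSpm-6 (0.91) and DNA-7 (0.90). These correlations are across libraries that fall into organs and species and share the scaling of the table, so they are a description. The median r over the 553 other families was 0.015, and 29 families had an r above 0.8. Within the 10 testis libraries alone, the same 5 families had an r of 0.86, 0.88, 0.74, 0.85 and 0.81. These libraries are part of the 13 by which the families were picked, so these values are no separate support. By r within testes the 5 families ranked 7, 4, 25, 8 and 16 of the 553, so other families ran more like Helitron-1 there. L2-12 is a LINE, and the other 4 are in the DNA class, with hAT and CMC-EnSpm elements moving by cut and paste. hAT-Charlie-7 had rlog values of 11.40, 11.39 and 11.45 in AC ovaries and 12.42, 12.25, 12.51 and 12.09 in AC testes, a larger difference between the organs than that of Helitron-1 (0.91, adjusted p = 0.000349) at a far lower level. NA-DNA-22 ran the other way, with an r of -0.90 over the 13 gonad libraries and -0.67 over the 10 testis libraries.

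Replicate libraries of Helitron-1 were about as close to each other as those of other families. The SD of its rlog value was 0.13 in AC ovaries, 0.10 in AC testes and 0.091 in MZ testes, where the median SD over the 557 families was 0.17, 0.12 and 0.11. In TM testes its SD of 0.097 was above the median of 0.070. There, replicates 1 and 3 had the higher values and replicates 2 and 4 the lower. Replicates 1 and 3 of TM testes were closer to each other over all families (SD of the difference 0.051) than any other pair of replicates (0.12 to 0.36), with no identical values, and were kept as separate libraries.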

How the data were processed

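Per the labels and the paper's methods, sRNA libraries were made with 1 kit and adapters were removed with cutadapt 1.15. Reads of 24 to 35 nucleotides were mapped to the AC genome (fAstCal1.2) with STAR 2.5.4b, allowing 2 mismatches. A read with several positions kept 1 at random, and a read with more positions than a set limit was dropped. Mapped reads were counted over TE families with featureCounts 1.6.0. The authors normalised the counts with DESeq2 and deposited rlog values on the log2 scale, so reads per family and depth are not in the table. Random placement can move reads between similar families. How many reads the limit on positions drops from each family was not tested.

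Helitron-1, the named families and the class lists were chosen with earlier results of these data known. Named are Helitron-1, NA-DNA-22, the Mavericks, the 5 highest families of any gonad group by mean, and the 5 most correlated with Helitron-1. The class of each family was assigned here from its name. Groups were compared with limma 3.58.1 (R 4.3.3, mean trend), each comparison on its own groups, and shares by exact two-sided permutation (scipy 1.17.1). The Benjamini-Hochberg adjustment in limma was over families with a mean rlog value of at least 3.32, which is 10 on the linear scale. The limma script was tested on simulated data. Replicates are, by the methods, tissue of size-matched individuals. The alternatives were other filters, a pseudocount, 4 scalings (the one to all reads uses read totals listed with the paper), 1 fit of all gonad groups, no trend, a replicate block and libraries left out. Muscle has 1 library and entered no test. No batch is given in the labels.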

Additional observations from a re-analysis of the deposited data

Results flagged for a closer look

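Among 32 values screened in the groups of 4 libraries, 3 had a library far from the other 3 by the ratio of its gap to the range, a screen (Dixon's 95% critical value) that about 1 in 20 groups pass by chance. None was a value of Helitron-1. In AC testes the ratio was 0.949 for Maverick-1, where replicate 3 had an rlog value of 13.22 against 13.41 to 13.42, and 0.951 for Maverick-3, where the same replicate had 12.75 against 12.95 to 12.96. For hAT-Tip100-2, one of the families most correlated with Helitron-1, the ratio was 0.852 in AC testes, with replicate 2 at 9.75 against 9.82 to 9.83.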

How the results depend on the processing

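Helitron-1 was higher in AC testes than in AC ovaries, past the threshold, under all 17 alternatives (limma adjusted p 0.000652 to 0.0316), and the log2 difference ran from 0.35 to 0.47 with single libraries left out. Its distance to the median family, higher in testes by 0.35, was higher by 0.12 when set against the median DNA family (exact permutation p = 0.229), by 0.44 against the mean of all families and by 0.29 to 0.45 with single libraries left out. The groups compared differ in sex or species, so a shared replicate number cannot mean the same fish. Whether it marks a shared preparation was not settled. Correlations of same-numbered deviations were -0.10 to -0.047 in AC testes and ovaries and 0.016 to 0.18 in AC and TM testes. The 2 MZ libraries deviate as mirror images, which cannot test pairing. The replicate block kept only libraries whose number occurs in both groups. That left 2 of each species in the comparisons with MZ and 3 of each organ in AC. With it the 4 differences were 0.46, -0.0081, 0.27 and 0.26 (limma adjusted p 0.0198, 0.868, 0.396 and 0.334). The block changed no call for Helitron-1.

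The near-zero difference between AC and TM testes turned positive with equal TE totals (0.022), with all 24 to 35 nucleotide reads (0.030), with TM replicates 1 and 3 averaged (0.020) and without AC testes replicate 4 (0.040), TM testes replicate 1 (0.026) or TM testes replicate 3 (0.014). It ran from -0.037 to 0.040 over the libraries left out, and its share difference of 0.023 percentage points was -0.0023 without NA-DNA-22, -0.0038 without AC testes replicate 3, -0.0020 without TM testes replicate 2 and -0.011 without TM testes replicate 4, with a range of -0.011 to 0.070. The difference from MZ testes passed the threshold for AC with all reads (0.63) and for TM with all reads (0.60), equal TE totals (0.28) and equal totals without NA-DNA-22 (0.24). It did not pass in 15 alternatives for AC and 13 for TM. Among these, averaging TM replicates 1 and 3 gave a TM difference of 0.22 (limma adjusted p = 0.136). Without MZ testes replicate 2 the adjusted p for TM was also under 0.05 (difference 0.31), in a fit whose MZ group is 1 library assumed to vary like those of TM. Over the libraries left out it ran from 0.17 to 0.30 for AC and from 0.18 to 0.31 for TM. The causes were not tested.

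Families past the threshold between AC and MZ testes numbered 90, against 323 with all reads, 48 with the replicate block and 5 to 57 with a library left out, and between TM and MZ testes 129, against 391 with all reads, 60 with all gonad groups in 1 fit, 21 with the block, 63 with TM replicates 1 and 3 averaged and 62 to 154 with a library left out. The counts with the replicate block rest on 2 libraries of each species, so they reflect fewer libraries as well as the block. The alternative with the default annotation gave no value, since that table names no Helitron. The number of libraries per group limits the permutation tests.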
